A study of Astyanax mexicanus with 14 samples.

Results

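The measurements below describe how whole larvae of the Pachón cave population of the Mexican tetra (Astyanax mexicanus) changed their RNA after UV-B. Cavefish larvae at 6 days post-fertilization were given 60 s of UV-B (3 libraries, replicates 1, 2 and 4) or the same time under white light as the control (3 libraries, replicates 2, 3 and 4), and RNA was taken 90 min later. Every library was a pool of 4 larvae, named here by its replicate number, and the 6 cavefish libraries were chosen by population and treatment from the 14 of the series. The other 8 libraries, 4 control and 4 UV-B, came from surface fish of the same age under the same exposures. They entered only where the populations were compared, in the surface values given beside cavefish values, and in 1 alternative fit of all 14 libraries. No genetic change was made in either population, and no batch was named. Each library was made from poly(A) RNA of the whole body, so a fall in a transcript can come from fewer cells of a type or from less RNA per cell, and these cannot be told apart.

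UV-B is absorbed by DNA and joins neighbouring pyrimidines into dimers that block transcription and replication. Cells answer with repair, through excision pathways that recognise the lesion by factors such as Ddb2 or through photolyases that reverse it in visible light, with stabilisation of p53, and with a fast stress response in which kinases activate AP-1, the dimer of Fos and Jun proteins. In fish larvae the skin meets the light first, while in Pachón fish the eyes degenerate during development and the natural habitat has no sunlight.

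Total counts were 8.67, 9.25 and 9.38 M (mega-counts) in control replicates 2, 3 and 4 and 9.21, 7.42 and 10.6 M in UV-B replicates 1, 2 and 4. These totals overlapped. Between 17020 and 17344 genes had at least 1 count. The share of counts in the 500 highest genes was 50.9%, 56.4% and 56.1% in controls and 63.3%, 59.1% and 64.0% after UV-B, so the groups did not overlap (exact permutation test, two-sided, p = 0.10, the smallest that 3 against 3 libraries allow). Principal components were taken over the 500 genes that varied most across these 6 libraries. The first held 87.1% of the variance of those genes, which is not a share over all genes. It placed controls between -20.3 and -12.7 and UV-B libraries between 15.6 and 17.6. Markers of neurons, skeletal muscle, epidermis, enterocytes and photoreceptors were all detected, with 0 of 84 markers at 0 counts over the cavefish libraries together. Some low markers, such as nrl of photoreceptors, had 0 counts in single libraries. Nothing in the labels says that the pools came from separate clutches, so p-values measure the spread between these pools.

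UV-B was followed by changes in a large share of the genes measured. Of 15244 genes tested, 4015 (26.3%) had an adjusted p under 0.05 by edgeR's quasi-likelihood test with Benjamini-Hochberg adjustment, the test behind every adjusted p given here. The large changes were mostly increases: of 151 genes changed at least 4-fold, 43 fell and the rest rose, and of 34 changed at least 8-fold, 28 rose and 6 fell. Between 2-fold and 4-fold the balance was the other way, with 439 rises and 710 falls, and from 1.5-fold to 2-fold there were 749 rises and 930 falls. Under 1.5-fold increases were again more frequent, 621 against 415. In all 1300 genes (8.53% of those tested) changed at least 2-fold. The control and UV-B libraries did not overlap in 6333 genes (41.5%). Direction also went with abundance. Levels are given as normalised CPM, counts per mega-count after TMM scaling, which are not corrected for gene length. Of 441 genes at 256 CPM or more, 241 rose and 5 fell, with a median log2 fold change of 0.51. Of 5169 genes between 4 and 16 CPM, 347 rose and 703 fell, and their median log2 fold change was -0.08.

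The balance of rises and falls rested on the scaling. The mean TMM factor was 1.12 ± 0.0865 (SD) for the 3 control libraries and 0.898 ± 0.0672 for the 3 UV-B libraries, and with library totals in their place the median over all genes moved by -0.32 on the log2 scale. The split was then 723 higher (4.74%) and 4089 lower (26.8%), against 1917 higher (12.6%) and 2098 lower (13.8%) with TMM. Directions below are relative to the TMM scale, and a log2 fold change between 0 and about 0.32 on it would be negative on the other. Single libraries mattered as well: 2365 genes were called without UV-B replicate 1 and 2434 without UV-B replicate 4.

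**Figure D1:**
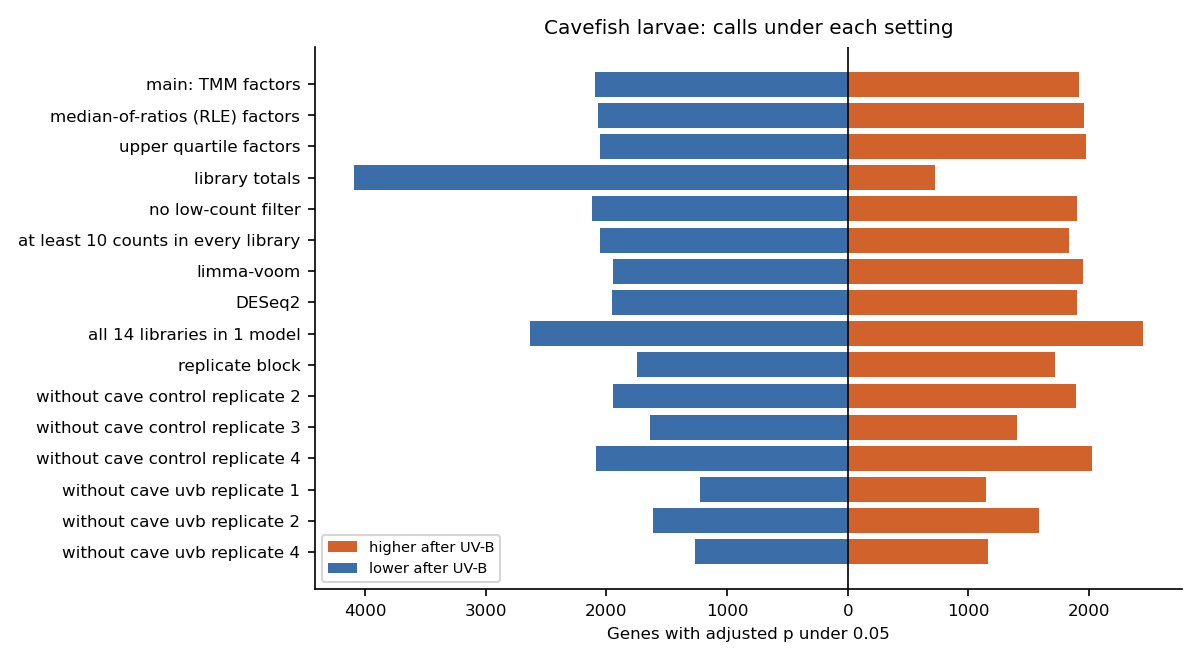
Horizontal bars give the number of genes with an adjusted p under 0.05 in cavefish larvae, higher after UV-B to the right and lower to the left, under TMM scaling (main) and each of 15 other settings. The split is nearly even under TMM (1917 and 2098) and uneven under library totals (723 and 4089). Calls in both directions together are fewest without UV-B replicate 1 or 4.

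**Figure D2:**
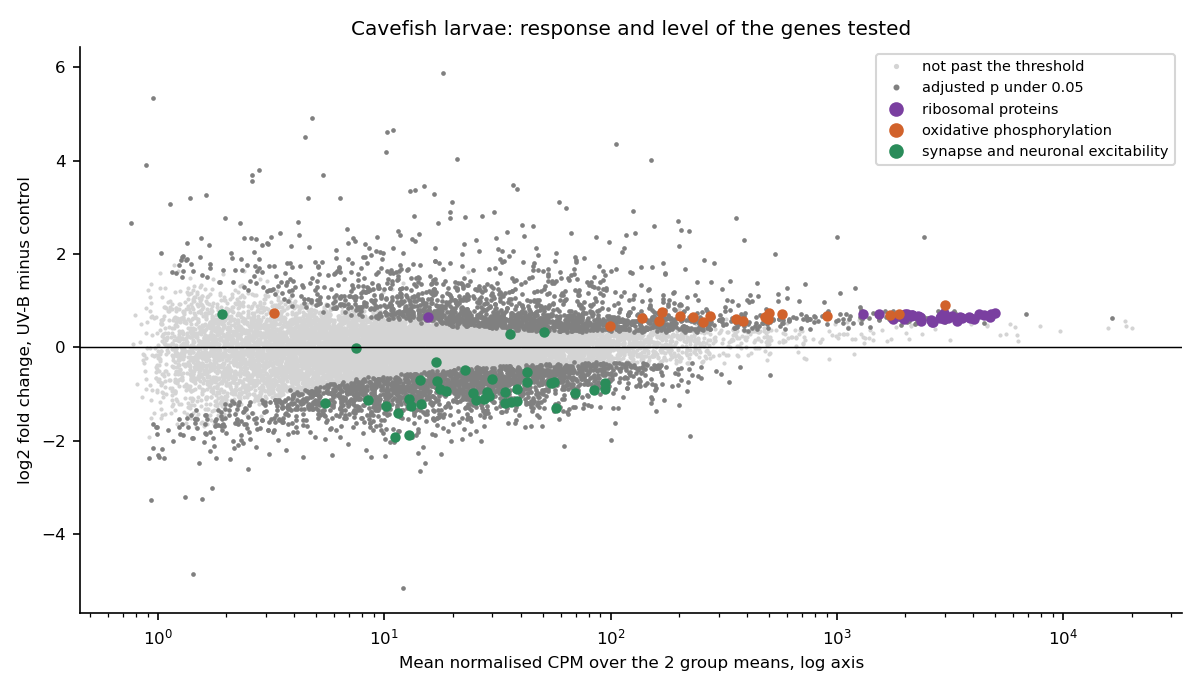
Each point is a gene tested in cavefish larvae, with the mean of the control and UV-B group means in normalised CPM on a log axis and the log2 fold change (UV-B minus control) on the vertical axis; dark grey marks adjusted p under 0.05. Ribosomal protein and oxidative phosphorylation genes lie above 0 and mostly at high CPM, and most synapse genes lie below 0.

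Gene names came from tables of the study that list its highest-ranked genes, so a name was itself more likely for a gene that changed. Of 2046 named genes tested, 1510 (73.8%) were called, 652 (31.9%) higher and 858 (41.9%) lower, against 12.6% higher and 13.8% lower over all genes tested. Counts of list members below are to be read against these shares, and they are not shares of a whole pathway. Genes named as the highest, the lowest or the largest of a list were taken only from called genes with separate groups. A lack of overlap in them is therefore a condition of the choice and not a result.

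The 12 highest increases among the named genes were led by fosl1a and included fosab, cebpb, il1b and the lipid droplet gene cidec. The transcript of fosl1a, which encodes an AP-1 subunit of the Fos family, had 0.853, 0.402 and 0.503 normalised CPM in control replicates 2, 3 and 4 and 32.5, 40.3 and 34.5 in UV-B replicates 1, 2 and 4. It was near the detection limit in every control and well above it in every UV-B pool, and it rose by 5.89 on the log2 scale (SE 0.27, adjusted p = 1.50e-08), more than any other named gene that averaged at least 50 counts and had separate groups. The Fos gene fosab went from 7.58, 6.23 and 15.5 to 189, 204 and 209 CPM, a log2 fold change of 4.36 (SE 0.25), with control replicate 4 above the other controls. For cebpb, a bZIP factor of acute stress and inflammation, the CPM were 17.3, 16.4 and 18.4 in controls and 296, 304 and 249 after UV-B. The cebpb values were tight in both groups, with a rise of 4.03 in log2 (SE 0.14, adjusted p = 1.09e-09).

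A lipid droplet gene came directly behind fosl1a. The transcript of cidec, whose product enlarges lipid droplets in fat cells, had 0.569, 1.11 and 0.804 CPM in controls and 23.8, 18.1 and 20.9 after UV-B (log2 fold change 4.65, SE 0.29). hspa1b, an inducible Hsp70 chaperone, went from 1.14, 1.21 and 0.804 to 14.7, 21.7 and 21.6 CPM (log2 fold change 4.18, SE 0.29). In neither gene did the groups overlap, which the choice required. The gene il1b, which encodes the inflammatory cytokine interleukin 1 beta, had 6.16, 7.84 and 6.03 CPM in controls and 61.5, 71.9 and 78.7 after UV-B (log2 fold change 3.40, SE 0.17, identifier ENSAMXG00000035729). A second identifier with the name il1b, ENSAMXG00000031873, held 5, 2 and 2 counts in controls and 54, 106 and 58 after UV-B. Near-identical copies can exchange reads, so how the increase divides between the 2 il1b identifiers is uncertain.

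The remaining genes among the 12 highest rose between 8.66-fold and 11.1-fold. They were si:ch73-335l21.4 (log2 fold change 3.48, SE 0.15), ppp1r27b, named for a regulatory subunit of protein phosphatase 1 (3.36, SE 0.24), EGR2, a zinc finger factor of the immediate early class (3.19, SE 0.31), HS3ST1, a heparan sulfate sulfotransferase (3.12, SE 0.21), and the immediate early gene ier2a (3.11, SE 0.16). MFAP4, named for a microfibril-associated protein, stood apart in its spread. Its CPM were 3.03, 1.81 and 2.31 in controls and 10.8, 57.0 and 7.24 after UV-B, so UV-B replicate 2 raised its log2 value of 3.36 (SE 0.64, adjusted p = 0.00174), which without that library was 1.90.

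**Figure D3:**
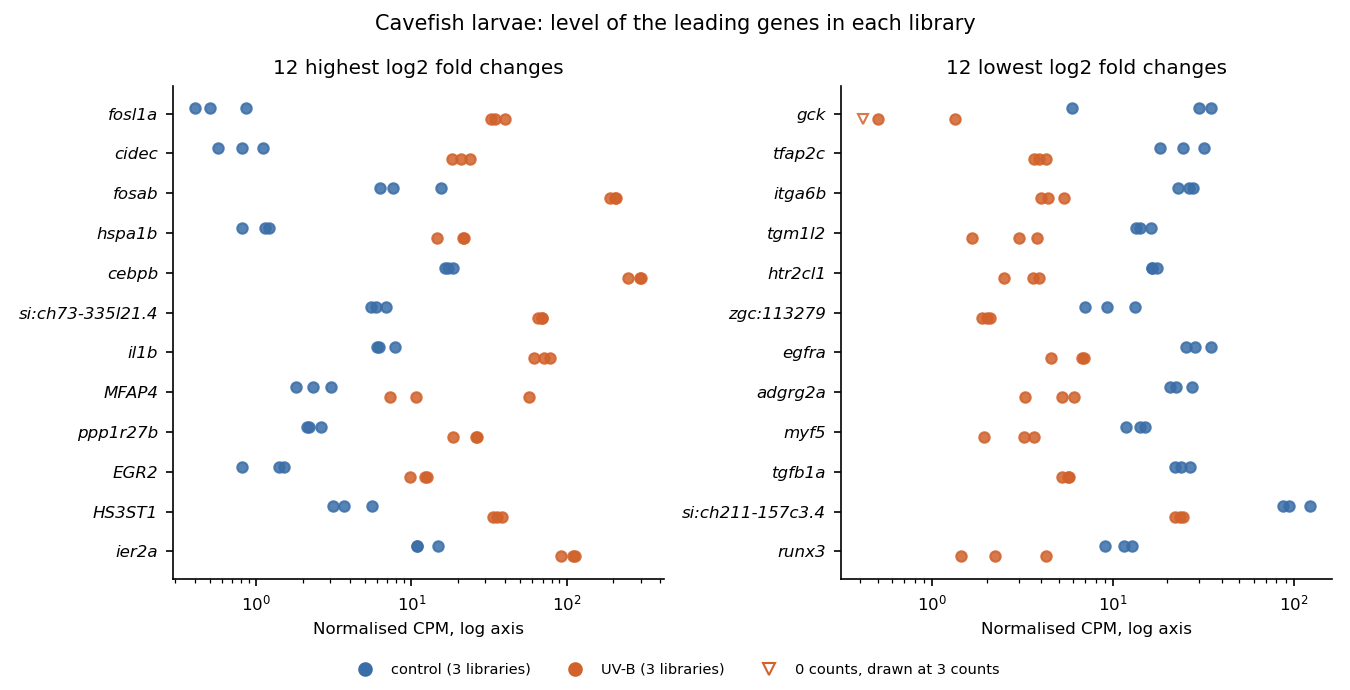
Normalised CPM (log axis) of the 12 named genes with the highest and the 12 with the lowest log2 fold changes among called genes that averaged at least 50 counts and had separate groups, in each of 3 control (blue) and 3 UV-B (orange) cavefish libraries. The groups are apart for every gene shown, which the choice required; gck in control replicate 4 and MFAP4 in UV-B replicate 2 lie far from the other libraries of their group.

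The lowest log2 fold change belonged to gck, which encodes glucokinase, the enzyme that phosphorylates glucose in liver and pancreas. Its CPM were 30.1, 35.0 and 5.93 in controls and 0.501, 0 and 1.34 after UV-B, the 0 being a library without a single count, which allows up to 3 counts (0.415 CPM). The groups did not overlap, which the choice required, but control replicate 4 was far below the other controls. On the log2 scale gck stood at -5.15 (SE 0.70, adjusted p = 0.000166), and at -5.60 without that library.

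Among the other 11 lowest genes was tfap2c. The transcript of tfap2c, an AP-2 factor of ectoderm and neural crest, had 18.2, 24.4 and 31.7 CPM in controls and 3.63, 3.87 and 4.23 after UV-B (log2 fold change -2.65, SE 0.24, adjusted p = 6.33e-06). The integrin gene itga6b, whose product anchors basal epithelial cells to the basement membrane, went from 26.3, 22.9 and 27.7 to 4.39, 4.01 and 5.35 CPM (log2 fold change -2.47, SE 0.20). In egfra, the epidermal growth factor receptor, CPM were 28.3, 25.4 and 34.9 in controls and 6.77, 6.92 and 4.57 after UV-B (-2.29, SE 0.21). All 3 genes were lower in every UV-B library than in every control, which the choice required. The growth factor gene tgfb1a fell by 2.13 on the log2 scale (SE 0.19), the transglutaminase gene tgm1l2 by 2.35 (SE 0.28), the serotonin receptor gene htr2cl1 by 2.32 (SE 0.24), the adhesion receptor gene adgrg2a by 2.27 (SE 0.24) and runx3, a transcription factor of the Runt family, by 2.08 (SE 0.34). The myogenic factor gene myf5 (-2.20, SE 0.27) and the uncharacterised genes zgc:113279 (-2.30, SE 0.32) and si:ch211-157c3.4 (-2.12, SE 0.15) completed the 12.

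A gene can also come close to silence. Only 2 genes had at least 20 counts in every control and at most 3 in every UV-B library, and 0 genes showed the opposite pattern with the same limits. One was spic, an ETS family factor known from mammals for red pulp macrophages, with 29, 24 and 34 counts in controls and 3, 1 and 3 after UV-B. Scaled to library size after TMM, the pooled UV-B level was 10.1% of the control level, with an exact 95% interval from 3.95% to 21.8% that covers counting error only. The other was ENSAMXG00000018726, with 30, 36 and 28 counts in controls and 3 in each UV-B library. Among called genes with a name and no overlap between groups, the one with the most counts that rose was hspa8, a constitutive Hsp70, at 4549, 5159 and 5795 CPM in controls and 8705, 8115 and 8674 after UV-B (log2 fold change 0.72, SE 0.18, adjusted p = 0.0109) and the one that fell was mknk2b, a kinase of the cap-binding factor eIF4E, at 277, 252 and 294 and 168, 159 and 168 CPM (-0.74, SE 0.12). The call for hspa8 was lost without control replicate 3 (adjusted p = 0.0555) and without UV-B replicate 1 (adjusted p = 0.0554).

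The gene lists were then taken in turn, beginning with transcription factors. Among bZIP factors, which include the Fos, Jun, Atf and Cebp families, 15 of 18 tested rose and 2 fell, with a median log2 fold change of 1.51 against -0.01 over all genes tested. Besides fosl1a, fosab and cebpb, the Jun gene junbb rose from 44.1, 47.8 and 64.4 to 332, 359 and 337 CPM (log2 fold change 2.72, SE 0.15). The members that fell were bach2b (-1.51), a repressor, and dbpb (-0.65), an output factor of the clock. Of the other immediate early genes, 21 of 26 rose and 3 fell (median 1.09). With ier2a and EGR2 the largest were ier5, at 39.7, 44.0 and 46.9 CPM in controls and 184, 158 and 198 after UV-B (2.05, SE 0.13), and zfp36l1b, whose product promotes decay of AU-rich mRNAs (1.75, SE 0.13). The falling members were arid5b (-1.63), nr4a3 (-1.60) and KLF2 (-1.46).

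**Figure D4:**
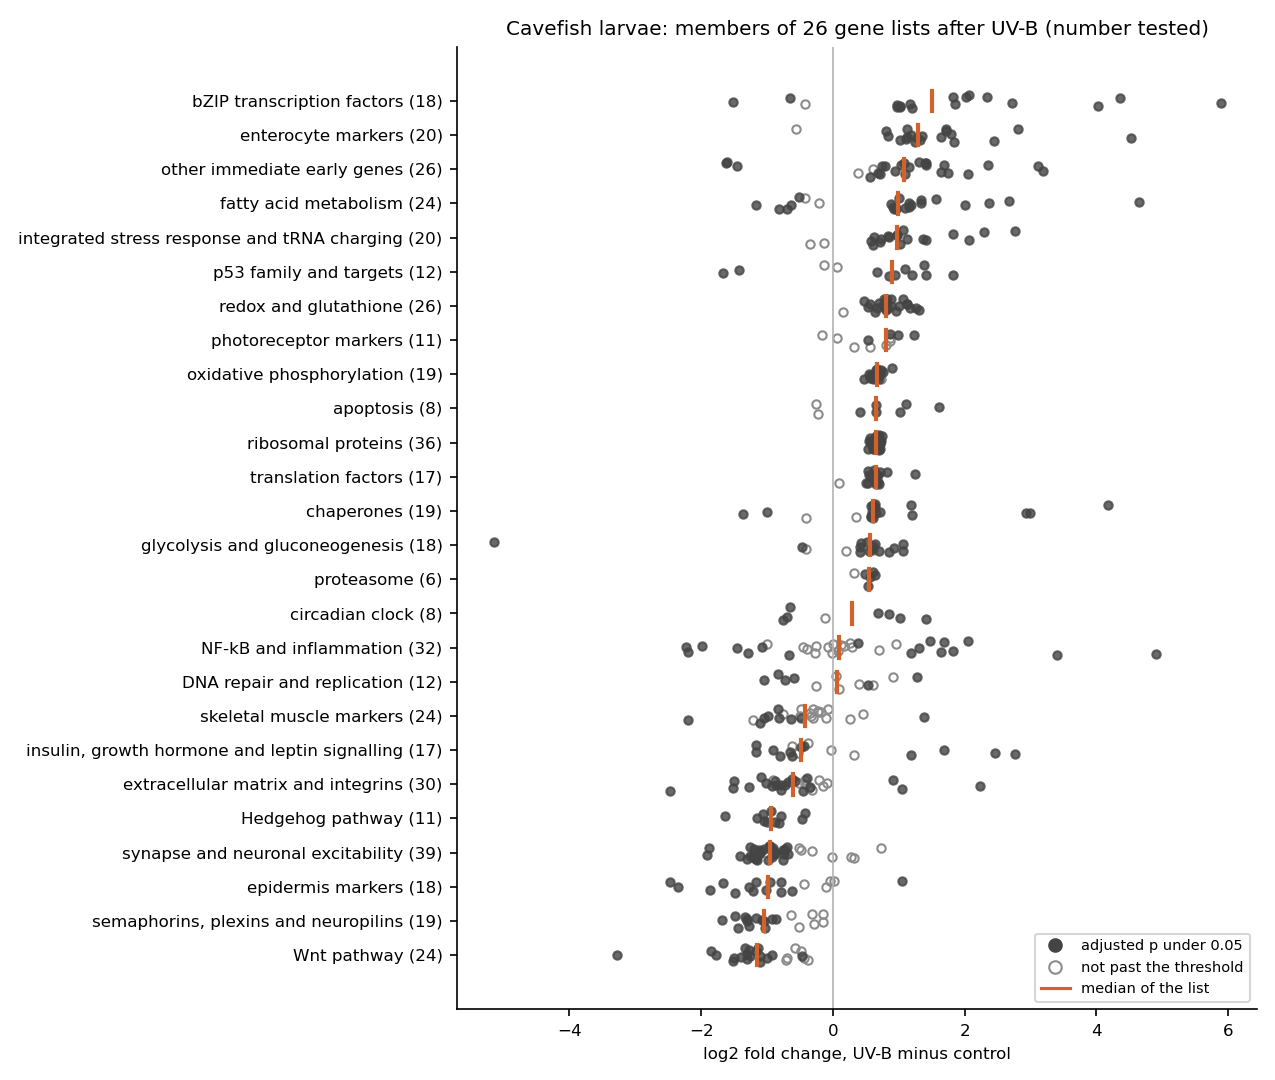
Log2 fold changes (UV-B minus control) in cavefish larvae of the members of 26 gene lists, with the number tested in parentheses; filled points passed an adjusted p under 0.05, open points did not, and the orange bar is the median of the list. Medians run from 1.51 for bZIP factors to -1.15 for the Wnt pathway.

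In the integrated stress response, Atf4 raises amino acid supply and tRNA charging when translation initiation is restrained. Most listed genes of this response rose. Of 20 members tested 18 rose and 0 fell, with a median log2 fold change of 0.97. Its largest change was in igfbp1a, an insulin-like growth factor binding protein induced by starvation and stress, with 74.4, 85.1 and 115 CPM in controls and 587, 619 and 669.9 after UV-B (log2 fold change 2.77, SE 0.17, adjusted p = 1.46e-07). The glutathione-degrading enzyme gene chac1, a known Atf4 target, went from 111, 151 and 130.0 to 659.8, 617 and 655 CPM (2.30, SE 0.14). In atf5b the CPM were 12.8, 13.2 and 16.9 and 57.0, 61.3 and 60.4 (2.06, SE 0.15). The groups did not overlap in any of these, which the choice required. The Atf4 gene itself, atf4a, rose by less (0.97, SE 0.14), as did ddit3 (0.97, SE 0.12). The members that did not pass were both arginine transporter genes, slc7a1a (-0.35, adjusted p = 0.223) and SLC7A1 (-0.14, adjusted p = 0.634).

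Chaperone genes mostly rose. Of 19 tested, 15 rose and 2 fell, with a median of 0.62. With library totals 11 rose and 2 fell, with a median of 0.30. The small heat shock protein gene hspb11 had 25.5, 27.2 and 35.1 CPM in controls and 197, 222 and 248 after UV-B (log2 fold change 2.92, SE 0.15). Another, hspb9, went from 8.53, 14.4 and 19.8 to 102, 110.0 and 127 CPM (2.99, SE 0.22). The 7 subunits of the cytosolic chaperonin in the list, tcp1, cct3, cct4, cct5, cct6a, cct7 and cct8, stayed within a narrow range of small increases, from 0.57 for cct6a to 0.65 for cct5. Both members that fell, serpinh1a (-1.36, SE 0.21) and serpinh1b, encode Hsp47, which serves collagen folding. Proteasome genes showed the small increases of the chaperonin. Of 6 tested 5 rose, among them psma4 (0.64, SE 0.15), psmc5 (0.60), psmb1 (0.57) and psmb3 (0.53), and 3 were called without UV-B replicate 4 and 0 with library totals.

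Genes of p53 and of DNA repair did not move as a block. In the p53 list 8 of 12 rose and 2 fell (median 0.90). The stress sensor gene sesn2 had 12.9, 14.9 and 16.0 CPM in controls and 52.7, 50.4 and 52.6 after UV-B (log2 fold change 1.83, SE 0.14), and the antiproliferative gene btg2 had 146, 149 and 162 and 398, 365 and 450.2 CPM (1.41, SE 0.13). The cell cycle inhibitor gene cdkn1a rose by 1.38 (SE 0.13). Both members that fell were relatives of p53 rather than its targets: tp63, the master factor of stratified epithelium, at 20.3, 32.1 and 25.9 CPM in controls and 8.39, 8.72 and 7.46 after UV-B (-1.67, SE 0.21), and tp73 (-1.43, SE 0.26).

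In the list of DNA repair and replication, 2 of 12 rose and 4 fell, with a median of 0.07, close to that of all genes. The damage sensor gene ddb2 had 30.4, 33.2 and 33.4 CPM in controls and 27.9, 24.1 and 29.0 after UV-B. Every UV-B value of ddb2 lay below every control value, but the log2 fold change of -0.26 (SE 0.14) did not pass the test (adjusted p = 0.20), and with library totals it did (-0.58, adjusted p = 0.00893). The photolyase gene cpdp had 48.4, 51.3 and 61.5 and 50.5, 53.8 and 62.9 CPM, overlapping groups, and a log2 difference of 0.05 (SE 0.14, adjusted p = 0.809) that was negative with library totals. What rose was ube2al, named for a ubiquitin-conjugating enzyme, from 10.4, 13.2 and 13.3 to 31.3, 26.7 and 31.0 CPM (1.27, SE 0.17, adjusted p = 0.000144), and ube2b (0.53), a ubiquitin-conjugating enzyme of postreplication repair. Lower were the cohesin release gene waplb (-1.04, SE 0.17), slf2 (-0.59), the Fanconi anemia gene fancc (-0.83, SE 0.25) and uvrag (-0.73, SE 0.20). The count of members that rose was 4 without control replicate 4, and the count that fell was 2 without UV-B replicate 1. With library totals 1 member rose and 5 fell, and ube2b lost its call (0.21, adjusted p = 0.260).

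Apoptosis genes mostly rose, 6 of 8 tested (median 0.66), on both sides of the pathway. The mitochondrial death factor gene diabloa had 50.5, 66.9 and 61.6 CPM in controls and 169, 145 and 233 after UV-B (log2 fold change 1.61, SE 0.17). The caspase inhibitor gene xiap, the target of that factor, had 33.2, 30.0 and 33.1 and 62.8, 55.1 and 76.2 CPM (1.01, SE 0.14). The nuclease gene endog (1.12, SE 0.17) and the BH3-only gene bada (0.66, SE 0.13) rose too, and 3 members were called higher with library totals.

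Redox genes rose with few exceptions. Of 26 tested 25 rose and none was called lower, by a median of 0.81 on the log2 scale. With library totals 19 were called higher, and the median was 0.49. The largest member was osgn1, an oxidative stress responsive gene, from 17.3, 15.0 and 19.0 to 43.9, 44.1 and 39.0 CPM (1.31, SE 0.15). The glutathione peroxidase gene gpx4a, which protects membrane lipids, went from 146, 168 and 234 to 417, 389 and 503 CPM (1.26, SE 0.17). Its relative gpx1b (1.17, SE 0.13) and the pentose phosphate enzyme gene pgd (1.12, SE 0.14) followed. GSTP1 was the member that did not pass (0.15, adjusted p = 0.423).

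Highly expressed genes of translation and respiration moved by small and nearly equal amounts. All 36 ribosomal protein genes tested were called higher, by log2 fold changes from 0.54 to 0.74. The ribosomal protein gene rpl5a had 1842, 2297 and 2546 CPM in controls and 4000.0, 3180.5 and 3979 after UV-B (0.74, SE 0.18, adjusted p = 0.00851). For rpl13a the values were 1931, 2414 and 2509.7 and 3799, 2998 and 4023 CPM (0.66, SE 0.18, adjusted p = 0.0156). The study used rpl13a as the reference gene for quantitative PCR of adult fins and of larvae from a time series, with no UV-B exposure named for them. Similar values were seen in rpsa (0.73), rps16 (0.72) and rpl3 (0.71). The number of calls depended on single libraries and on scaling. It was 2 without UV-B replicate 1, 6 without UV-B replicate 4, 21 without control replicate 3 and 27 with library totals, where the median was 0.34. Estimates that lost their call moved little: without UV-B replicate 1 rpl5a was 0.69 (adjusted p = 0.0518), rpsa 0.70 (0.0625) and rpl3 0.68 (0.0732). Calls over all genes also went from 4015 to 2365 there. How much of the loss came from having fewer libraries was not tested. Ribosomal proteins took 8.01%, 9.11% and 9.53% of the counts in controls and 11.7%, 10.3% and 11.7% after UV-B, alongside the share of the 500 most abundant genes given above. The part of that concentration in the fold changes was not tested.

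Of translation factors 16 of 17 rose (median 0.65, 10 with library totals). One stood above the rest. The initiation factor gene eif2s2, which encodes eIF2 beta, had 30.5, 30.9 and 29.1 CPM in controls and 78.7, 63.5 and 71.9 after UV-B (1.24, SE 0.13, adjusted p = 1.79e-05), while eif4a1a (0.82), eef1b2 (0.72) and eif2s3 (0.71) were nearer the median. In oxidative phosphorylation 18 of 19 rose (median 0.66, 11 with library totals). The adenine nucleotide carrier gene slc25a5 was highest, with 1802, 2061 and 2397 CPM in controls and 3921, 3605 and 4147 after UV-B (0.90, SE 0.17), followed by CYC1 (0.76) and COX5B (0.74) of the respiratory chain and the ATP synthase gene atp5f1b (0.72).

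Listed genes of carbohydrate and lipid metabolism rose on balance, each list with members that fell. In glycolysis and gluconeogenesis 13 of 18 rose and 2 fell (median 0.57), and the higher count was 6 with library totals and 8 without control replicate 3, and 1 member was lower without control replicate 4, UV-B replicate 1 or UV-B replicate 2. Against the fall of gck, pck1, the entry enzyme of gluconeogenesis, went from 129.9, 115 and 176 to 282, 281 and 319.9 CPM (1.07, SE 0.15), and g6pca.2 (0.93, SE 0.13), a glucose-6-phosphatase, rose too. In fatty acid metabolism 17 of 24 rose and 5 fell (median 0.98). The lipid droplet coat gene plin2 had 21.7, 22.8 and 39.5 CPM in controls and 139, 153 and 141 after UV-B (2.37, SE 0.19). The acyl-CoA synthetase gene acsl5 had 9.29, 6.23 and 10.8 and 37.0, 30.7 and 38.1 CPM (2.01, SE 0.20), and the fatty acid uptake gene cd36 rose by 1.56 (SE 0.22). The falling members include ppargc1a (-1.17), a coactivator of mitochondrial genes, the lipase gene lpl (-0.81) and the muscle isoform cpt1b (-0.70), and the count that fell was 3 without control replicate 3 or UV-B replicate 1.

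Markers of enterocytes, the absorptive cells of the gut, rose together. Of 20 tested 19 rose, 17 of them at least 2-fold, with a median log2 fold change of 1.29. Their summed level was 1298, 1250.0 and 1906 normalised CPM in controls and 3931, 3587 and 3952 after UV-B, and did not overlap. The cholesterol uptake gene NPC1L1 had 3.70, 2.61 and 3.72 CPM in controls and 29.1, 17.0 and 24.7 after UV-B (2.82, SE 0.25, adjusted p = 5.47e-06). The peptide transporter gene slc15a1b had 42.9, 21.1 and 54.9 and 226, 199 and 226 CPM (2.45, SE 0.24), control replicate 3 being the lowest of all. The glucose transporter gene slc5a1 (1.84, SE 0.14) and the scaffold gene pdzk1 (1.80, SE 0.20) rose as well. The only member tested that did not pass was alpi.1 (-0.57, adjusted p = 0.104), an intestinal alkaline phosphatase, though its relative alpi.2 rose (1.72). Enterocytes also express genes of the lipid, redox and glucose lists, and the part of the enterocyte rise in those lists was not tested.

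Photoreceptor markers were present at a low level in these larvae, with a summed 83.7, 96.2 and 101.4 CPM in controls and 121.0, 113.3 and 138.4 after UV-B over 17 markers, of which 6 had too few counts for the test. Of 11 tested 4 were called higher and 0 lower. The share higher was near the 31.9% of all named genes, of which 41.9% were lower. Among the 4 were the red opsin gene opn1lw1 (1.00, SE 0.23, adjusted p = 0.00692), rcvrn2 (0.86, adjusted p = 0.0125) and the photoreceptor factor gene crx (0.53, adjusted p = 0.0490). These calls were fragile: 0 held without UV-B replicate 4, 2 without control replicate 3 or UV-B replicate 1, and 1 with library totals.

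The circadian list divided. The gene cry1a, a light-induced cryptochrome of the clock in zebrafish, had 75.0, 77.3 and 77.8 CPM in controls and 38.8, 56.9 and 41.2 after UV-B, lower in every UV-B library (log2 fold change -0.75, SE 0.15, adjusted p = 0.00208). The other light-induced member, per2 (-0.69, SE 0.13), and dbpb fell as well. Higher after UV-B was nocta, a deadenylase gene under clock control, at 31.8, 29.3 and 29.1 CPM in controls and 87.8, 80.7 and 72.5 after UV-B (1.42, SE 0.13), with nfil3-5 (1.03), cipcb (0.85) and bhlhe40 (0.69). In all, 4 of 8 rose and 3 fell.

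The NF-kB and inflammation list was mixed. Of 32 tested, 10 rose and 7 fell, around a median of 0.10. The share that rose was near that of all named genes (31.9%), and the share that fell was below theirs (41.9%). After il1b came tnfrsf9a, a receptor of the tumour necrosis factor family, with 7.87, 9.65 and 8.35 CPM in controls and 37.5, 27.5 and 26.3 after UV-B (1.82, SE 0.19). The feedback inhibitor gene socs3a went from 6.45, 5.13 and 5.23 to 16.8, 23.9 and 13.7 CPM (1.69, SE 0.24) and the prostaglandin synthase gene ptgs2b from 6.07, 5.53 and 5.33 to 15.7, 15.4 and 21.7 (1.64, SE 0.22). Members that fell include the ubiquitin ligase gene peli1a (-2.22), the macrophage growth factor gene csf1a (-2.19) and the NF-kB subunit gene rel (-1.29). The count that fell was 4 without UV-B replicate 4 and 12 with library totals.

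Epidermal genes fell. Of 18 markers tested 13 fell and 1 rose (median -0.99), and the summed level was 553.9, 617.9 and 682.5 CPM in controls and 356.7, 389.9 and 351.3 after UV-B. Beside itga6b, tgm1l2 and tp63, the barrier factor gene grhl2a went from 14.5, 23.7 and 27.0 to 5.26, 6.64 and 5.90 CPM (-1.87, SE 0.25). Keratin krt99 (0.01, adjusted p = 0.971) and the lipid transporter gene abca12 (-0.05, adjusted p = 0.871) did not pass, and the laminin gene lama3 rose (1.04). In the list of extracellular matrix and integrins 18 of 30 fell and 3 rose (median -0.60). The integrin gene itga9 had 35.4, 43.6 and 42.5 CPM in controls and 13.4, 14.1 and 15.5 after UV-B (-1.50, SE 0.16), and the laminin gene lamc1 had 56.3, 69.6 and 63.0 and 28.1, 23.2 and 26.8 (-1.27, SE 0.14). Both hyaluronan synthase genes moved, in opposite directions: has1 rose from 2.94, 1.61 and 2.72 to 14.8, 11.2 and 8.35 CPM (2.23, SE 0.31) and has2 fell (-1.52, SE 0.46). The call for has2 (adjusted p = 0.0261) rested on a mean of 19.2 counts and was not kept under every other setting.

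Genes of the synapse fell without a called exception. Of 39 tested 31 fell and 0 rose, with a median of -0.95. The adhesion gene LRFN2 had 20.4, 15.7 and 16.9 CPM in controls and 5.01, 4.70 and 4.34 after UV-B (-1.91, SE 0.22). The metabotropic glutamate receptor gene GRM7 went from 23.1, 18.5 and 18.8 to 4.89, 5.67 and 5.79 CPM (-1.88, SE 0.21), and the neuroligin gene nlgn4xa from 93.7, 73.9 and 75.8 to 34.6, 36.5 and 28.2 (-1.30, SE 0.14). Every UV-B library was below every control in these 3 genes, which the choice required. The NMDA receptor gene grin2ca fell as well (-1.40, SE 0.21). The summed level of the general neuronal markers, of which syt5b and scn8ab are also in this list, was 775.8, 713.6 and 676.7 CPM in controls and 823.5, 743.4 and 861.8 after UV-B, overlapping, and 1 of 5 markers was called higher and 2 lower. Skeletal muscle markers gave fewer calls for their number, with 8 of 24 lower, 4 without UV-B replicate 1 and 17 with library totals, and 1 higher. Their summed level, 18579, 28895 and 22396 CPM in controls and 31980.3, 24153 and 33676 after UV-B, overlapped and had its highest values after UV-B, unlike the count of falls. Among these markers xirp2a fell from 173, 256 and 194 to 79.9, 104 and 107 CPM (-1.10, SE 0.16), dok7 of the neuromuscular junction fell (-1.04, SE 0.24), and the mitochondrial creatine kinase gene ckmt2a rose (1.39, SE 0.31).

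Listed genes of developmental signalling mostly fell in 3 pathways. All 11 Hedgehog pathway genes tested were called lower, receptors and transcription factors alike, by a median of -0.95. The transcription factor gene gli3 had 24.1, 20.9 and 16.0 CPM in controls and 7.77, 6.50 and 5.46 after UV-B (-1.63, SE 0.22), and the co-receptor gene boc had 94.5, 91.0 and 98.2 and 47.4, 43.9 and 44.9 (-1.06, SE 0.11, adjusted p = 2.62e-05). The related co-receptor gene cdon (-1.05) and gli2b (-1.16) fell by similar amounts. In the Wnt pathway 18 of 24 fell and none was called higher (median -1.15). The ligand gene wnt9b went from 38.3, 33.0 and 40.8 to 11.8, 8.02 and 11.1 CPM (-1.85, SE 0.18), the R-spondin genes rspo3 (-1.78, SE 0.28) and rspo2 (-1.51, SE 0.21), whose products amplify Wnt signals, fell, and so did the receptor gene ror1 (-1.51, SE 0.31). Both entries of the feedback target axin2, written axin2 (-1.26) and AXIN2 (-1.30), were lower. For the entry written axin2 the groups overlapped, and its call was not kept under every other setting. Of semaphorins, plexins and neuropilins, which guide axons and vessels, 13 of 19 fell (median -1.04). The co-receptor gene nrp2a went from 66.4, 63.1 and 73.7 to 19.3, 24.8 and 19.6 CPM (-1.68, SE 0.14) and the ligand gene sema4ba from 69.1, 67.2 and 76.1 to 24.2, 26.6 and 25.1 (-1.49, SE 0.13), and sema6e (-1.43) and plxnb3 (-1.33) fell too.

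Genes of endocrine growth signalling moved in both directions, at shares near those of all named genes. Of 17 genes of insulin, growth hormone and leptin signalling 8 fell and 4 rose (median -0.48). The growth hormone receptor gene ghra had 56.5, 50.3 and 50.6 CPM in controls and 22.6, 20.1 and 27.1 after UV-B (-1.17, SE 0.15), and the insulin receptor gene insrb fell as well (-0.91). The rises were in the leptin gene lepa (2.46), in igfbp1a, and in the inhibitors socs3a and cish, the latter from 21.3, 18.8 and 19.5 to 51.4, 49.3 and 35.2 CPM (1.18, SE 0.16). Without UV-B replicate 1, 4 members were called lower, and without UV-B replicate 4 the number was 3. It was 5 without control replicate 2 or UV-B replicate 2.

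The last comparison asked where the cavefish response differed from that of surface fish, with the interaction of population and treatment over all 14 libraries. Of 16104 genes 3.7% were called, 1.41% higher in cavefish and 2.29% lower, and of named genes 15.3%. The 596 calls became 326 when UV-B replicate 4 of the cavefish was left out and 381 when their control replicate 3 was. The 10 named genes with the most extreme differences, 5 in each direction, are given first. The log2 fold change of gck was -5.15 in cavefish and -0.65 in surface fish (difference -4.50, SE 0.92, adjusted p = 0.00795), and with the replicate number as a block the difference was -3.51 and not called (adjusted p = 0.0883). For tfap2c it was -2.65 and -0.10 (difference -2.56, SE 0.23, adjusted p = 7.03e-06), a gene not called in surface fish (adjusted p = 0.457). The neural factor gene prdm13 had 9.29, 12.2 and 10.6 CPM in cave controls and 6.26, 3.18 and 5.57 after UV-B, lower in cavefish (-1.08) and higher in surface fish (0.79). The channel gene trpm1b, known from retinal bipolar cells and pigment cells, divided likewise (-1.35 and 0.35), and atp11a, a phospholipid flippase, fell in cavefish (-1.81) with -0.10 in surface fish (adjusted p = 0.506).

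On the other side tnfrsf9a rose in cavefish (1.82) and fell in surface fish (-1.29), a difference of 3.11 (SE 0.37, adjusted p = 7.72e-05). NPC1L1 changed by 2.82 in cavefish and 0.29 in surface fish (adjusted p = 0.250 in the latter). The values were 3.40 and 1.02 for il1b (ENSAMXG00000035729) and 3.36 and 1.09 for ppp1r27b. bcl3, an atypical inhibitor of the NF-kB family, fell in surface fish (-1.71) and had 4.65, 3.12 and 5.33 CPM in cave controls and 6.64, 7.75 and 6.90 after UV-B (0.70, adjusted p = 0.0836).

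By list, the differences gathered in opposite directions. In the NF-kB and inflammation list the difference was called in 13 of 34 members, 13 of them higher in cavefish. The list median was 0.10 in cavefish and -0.99 in surface fish, where 26 of 33 tested fell. Names came from ranked tables of both populations, so surface values of named genes were selected as well. Of named genes, 1121 of 2042 fell in surface fish, against 2367 of 14889 over genes tested in both populations. The medians of named genes were -0.40 in cavefish and -0.45 in surface fish. In the synapse list the difference was called in 17 of 39, all lower in cavefish (medians -0.95 and -0.39). Over named genes 6.65% were called higher in cavefish and 8.65% lower. The 3 circadian genes that fell in cavefish, cry1a, per2 and dbpb, were each called different, with log2 fold changes in surface fish of 0.24, 0.48 and 0.18. Of enterocyte markers 6 of 20 rose more in cavefish, and of bZIP factors 7 of 19 did and 1, dbpb, was lower. No difference was called in any Hedgehog, ribosomal protein, oxidative phosphorylation, extracellular matrix or skeletal muscle gene of the lists, which does not show that those responses were equal.

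**Figure D5:**
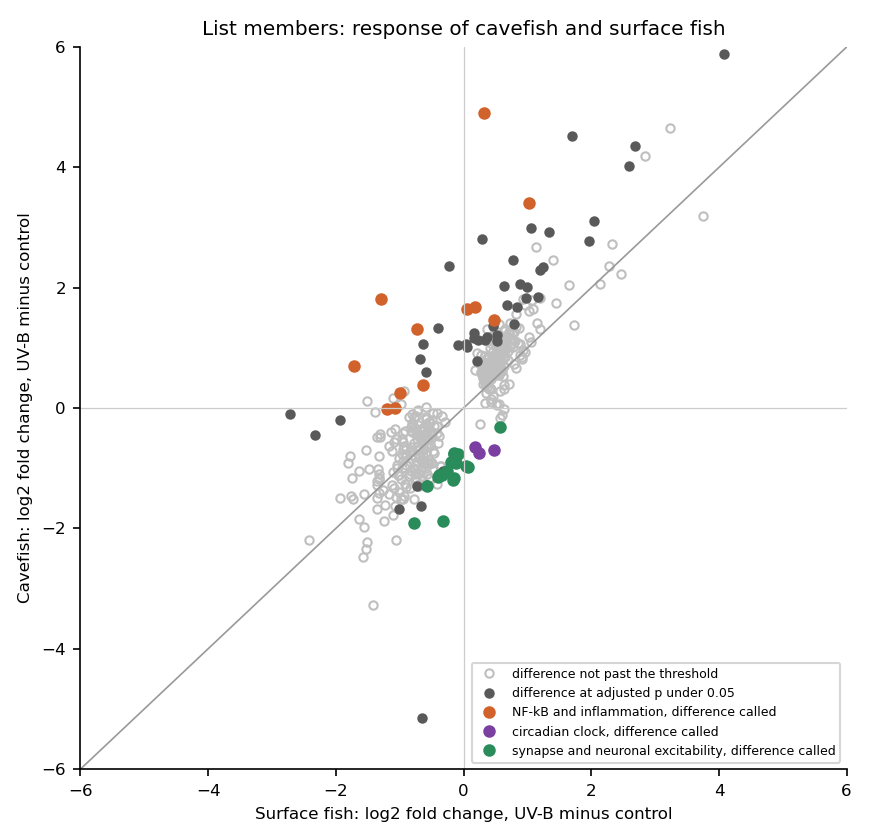
Log2 fold changes (UV-B minus control) of list members in surface fish (horizontal, 4 against 4 libraries) and cavefish (vertical, 3 against 3 libraries), with the line of equal response; filled points have a tested difference at adjusted p under 0.05. Inflammation genes with a called difference lie above the line and synapse and circadian genes below it; few points lie near 0 on both axes because names came from genes ranked high in the study's tables.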

How the data were processed

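RNA sequencing counts of 6 cavefish libraries (3 control, 3 UV-B) were analysed; groups came from the sample labels. Alignment to A. mexicanus genome version 2.0 and counting were both done by the authors with STAR, on an Ensembl annotation. The deposited values are these raw counts per gene (19076 genes, none a summary row). For most genes they are well below the counts that a supplementary table of the study lists for the same libraries; the reason was not settled, so totals may understate the sequencing. The strand setting was not given in the sources used here, and overlapping, antisense and near-identical genes are uncertain. Total counts ran from 7.42 to 10.6 M, and 3 counts, the limit that a count of 0 allows, were 0.284 to 0.415 CPM. Counting limits cover counting error only.

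The comparison used edgeR 4.0.16 (R 4.3.3): filterByExpr, TMM factors of the 6 libraries, the quasi-likelihood test and Benjamini-Hochberg adjustment over all genes tested, called at an adjusted p under 0.05. SE was obtained from the size of the log2 fold change over the root of the F statistic. The study used DESeq2, here an alternative (1.42.0) with limma-voom (limma 3.58.1), other scalings and filters, all 14 libraries in 1 model, the replicate number as a block, and each library left out. Cave and surface responses were compared by the interaction term over 14 libraries. Surface fold changes and calls came from the same test on the 8 surface libraries alone. For 8 library measures the groups were compared by two-sided exact permutation tests (every adjusted p at least 0.133), and replicates of a group differed beyond sampling noise (chi-square per degree of freedom 5.71 to 17.3, over genes with a summed count of 20 or more). The fits were also run on simulated data. In those data few genes changed, as many up as down, and the TMM scaling was taken as given. That run therefore cannot test the choice of scaling.

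The deposited table holds identifiers only. Names were copied from the study's supplementary gene tables, without values, and covered 2046 of the genes tested. The 26 gene lists (496 members tested, 12 with too few counts, 20 names in more than 1 list) and the naming rule were chosen with earlier results of these data known. The rule took called genes that had a name, averaged at least 50 counts and had separate groups: the 12 highest and 12 lowest log2 fold changes, up to 4 members of each list with the largest changes, the 5 highest and 5 lowest interaction estimates (over called differences with that mean) and the most abundant gene in each direction, with genes the study discusses and the highest and lowest unnamed genes. Other list members were named after their values were seen. No promoter, protein or genome sequence of the build was used, so gene length and GC content were not checked. Some items are not reported here.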

Additional observations from a re-analysis of the deposited data

Results flagged for a closer look

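The results here stand out because the UV-B response of cavefish differed from that of surface fish by the test of the difference itself (interaction term, edgeR, adjusted p under 0.05). Each value is the difference of log2 fold changes, cave minus surface. No explanation was tested.

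A positive difference means a higher value in cavefish. Among transcription factors and fast response genes it was 1.81 for fosl1a, 1.68 for fosab, 1.44 for cebpb, 1.17 for atf5b and 1.07 for ier2a. In stress genes it was 1.94 for hspb9, 1.58 for hspb11, 1.10 for chac1, 0.85 for sesn2, 0.81 for igfbp1a and 1.08 for eif2s2. All of these also had positive log2 fold changes in surface fish, from 0.16 for eif2s2 to 4.08 for fosl1a, so the estimates differed in size and not in sign. Inflammation genes differed by 3.11 (tnfrsf9a), 2.41 (bcl3), 2.38 (il1b, ENSAMXG00000035729), 1.59 (ptgs2b) and 1.51 (socs3a), and here tnfrsf9a and bcl3 fell in surface fish, while bcl3 had no call in cavefish (adjusted p = 0.0836). Genes of gut and metabolism differed by 2.52 (NPC1L1), 1.67 (slc15a1b), 1.03 (pck1), 1.01 (acsl5) and 0.59 (pgd). The difference was 2.27 for ppp1r27b.

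In the flagged genes that fell in cavefish the difference was negative. This does not hold for every gene that fell, as the estimate for zgc:113279 was 0.59 (adjusted p = 0.504). The difference was -4.50 for gck, -2.56 for tfap2c and -1.71 for atp11a, none of them called in surface fish. Neural and synaptic genes differed by -1.88 (prdm13), -1.70 (trpm1b), -1.64 (htr2cl1), -1.57 (GRM7), -1.14 (LRFN2), -0.73 (nlgn4xa) and -0.66 (nrp2a). Of these, prdm13 and trpm1b rose in surface fish, as did cry1a, which differed by -0.99. The remaining values were -1.14 for si:ch211-157c3.4, -0.72 for waplb and -1.23 for ENSAMXG00000011742, the lowest unnamed gene of the cavefish comparison. Of these 36 differences 26 stayed called under all alternatives that tested them. The others were slc15a1b, acsl5 and gck, lost with the replicate block only, nlgn4xa, lost without UV-B replicate 4 (adjusted p = 0.0876), nrp2a, lost with the block and without UV-B replicate 1 or 4, and igfbp1a, pck1, waplb, socs3a and pgd, lost with the block and on leaving out each of several libraries, and, except waplb, with library totals. The difference of pck1 was also lost with DESeq2.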

How the results depend on the processing

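Of the 122 genes named by the rule that were tested, 119 were called. All 119 kept their direction under every one of the 15 alternatives that tested them, and 104 stayed called throughout. Most of the 122 could be named only if they were called and had separate groups, so these counts do not measure how stable calls were in general. Over all genes, 2333 of the 4015 calls were kept without UV-B replicate 1. The calls lost most often were those of crx and fancc. Exceptions in direction concern a gene without a call: cpdp was -0.26 with library totals, -0.02 without control replicate 2 and -0.0435 without UV-B replicate 4, its range over left-out libraries being -0.0435 to 0.163. With library totals the cavefish counts were 723 higher, 4089 lower and 2086 changed at least 2-fold, and 128 differences between populations were higher and 634 lower in cavefish; the calls of psma4, psmb1, psmb3, psmc5, bada, crx and rcvrn2 were lost and ddb2 was called lower. Other scalings, filters and tools gave 3855 to 4031 cavefish calls, and all 14 libraries in 1 model gave 5076. Leaving out 1 cavefish library gave 2365 to 4115 calls (1143 to 2027 higher, 1222 to 2088 lower, 1046 to 1486 at least 2-fold). For the difference between populations it gave 326 to 773 calls (128 to 363 higher, 198 to 410 lower, 193 to 371 at least 2-fold), against 596 with all libraries, and DESeq2 gave 930 (357 higher, 573 lower). With 1 cavefish library left out, the difference in the share of the 500 most abundant genes stayed between 5.87 and 9.16 percentage points. The difference in total counts ran from -0.788 to 0.783 M, on both sides of 0.

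Replicate numbers 2 and 4 occur in both groups, and nothing says that they mark a shared clutch or day. The 2 same-numbered pairs deviated together with r = 0.121 and 0.211, against -0.199 to 0.109 for other pairs of a control and a UV-B library. With the replicate block 3471 cavefish genes were called (1721 higher, 1750 lower) and 339 differences between populations (140 higher, 199 lower in cavefish). Only replicate numbers 2 and 4 set the cavefish estimate in that fit. A call lost with the block can therefore come from the fewer libraries that bear on it. Fold changes under 2 in genes below 4 CPM were mostly beyond this depth, the median SE there being 0.44.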

Other observations

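Of the 4015 called genes 2505 had no name. The highest unnamed gene under the naming conditions was ENSAMXG00000031894, with 1.23, 0.101 and 1.01 CPM in controls and 22.1, 15.8 and 21.3 after UV-B (log2 fold change 4.62, SE 0.40). It was nearly silent in controls and was not tested in surface fish alone, where its counts were too low. The lowest, ENSAMXG00000011742, had 22.5, 23.7 and 16.7 CPM in controls and 6.39, 5.26 and 5.01 after UV-B (-1.92, SE 0.22).

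A pair of further list members had large changes at a mean below 50 counts and were singled out after their values were seen. tmprss15, which encodes enteropeptidase, the gut enzyme that activates trypsinogen, had 0.664, 0 and 0.402 CPM in controls and 7.14, 9.41 and 9.13 after UV-B (4.52, SE 0.52, adjusted p = 4.25e-05). The R-spondin gene rspo1 had 1.71, 1.61 and 1.81 and 0.251, 0 and 0.223 CPM (-3.27, SE 0.68, adjusted p = 0.00340).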
